A study of Saccharomyces cerevisiae with 15 samples.

Results

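The comparison described here is that of budding yeast (Saccharomyces cerevisiae, strain W303) carrying ZPR1-AID after 3 h of 5-Ph-IAA with the same genotype after 3 h of the solvent DMSO. ZPR1-AID is a fusion of ZPR1 to an auxin-inducible degron, and 5-Ph-IAA is an auxin derivative that marks the fused protein for destruction by the proteasome. The groups were chosen by the treatment given in the labels and hold 6 of the 15 libraries of the study, 3 per group. The other 9 libraries, which were of untreated cells at 0 h and of cells after 0.5 h and 1.5 h of 5-Ph-IAA, entered the shared estimate of spread, and the untreated ones also serve as a reference level. All 15 libraries carried ZPR1-AID, held polyadenylated RNA and came from cells frozen during mid-log growth. The comparison asks what 5-Ph-IAA changed beyond the solvent and the time in culture. No library of a strain without the degron given 5-Ph-IAA was analysed here, so an effect of the compound itself and of the loss of Zpr1 cannot be told apart. The labels name no auxin receptor, number of clones or mating type, and Zpr1 protein was not measured in the data used here. As nothing in the labels says that replicates came from separate cultures, every p-value reflects only how these libraries vary, and that variation may be technical.

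Zpr1 is a zinc finger protein that helps eEF1A, the abundant factor that brings tRNAs to the ribosome, to fold after its synthesis. When unfolded protein occupies the Hsp70 chaperones, the transcription factor Hsf1 is set free and switches on genes of chaperones and of their helpers. Shortage of amino acids raises the translation of the activator Gcn4, which switches on amino acid synthesis, while shortage of zinc activates Zap1, which switches on zinc uptake.

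The 3 libraries of 5-Ph-IAA held 6297003, 2530145 and 17044914 counts and those of DMSO 11374294, 21282576 and 15133126. Library 2 of 5-Ph-IAA was both the shallowest and that with the largest share of mitochondrial and small noncoding RNA, so results that move by more than 1.5 times without it are also given without it. The median SD of a gene's log2 CPM (CPM, counts scaled to TMM library sizes) was 0.218 in the 5-Ph-IAA group and 0.208 in the DMSO group, against 0.135 to 0.151 in the other 3 groups. The biological coefficient of variation was 17.0% over all 15 libraries and 22.3% in the 6 alone. The 15-library fit may therefore understate the spread of the groups compared, and its p-values may be too small. Of the mating genes, which the labels do not bear on, the a-cell receptor gene STE2 stood at 406 to 612 CPM in the 6 libraries. STE3, the receptor gene of alpha cells, stood at 1.69 to 4.60 CPM. Not all such genes were so far apart. Under 5-Ph-IAA and DMSO the alpha-cell genes SAG1 and MF(ALPHA)2 had means of 19.97 and 20.4 CPM and of 7.93 and 8.54 CPM. The a-cell genes AGA2 (19.96 and 26.7 CPM) and ASG7 (8.57 and 10.1 CPM) were close to these. The a-cell genes BAR1, MFA1, MFA2 and STE6 stood higher, with means of 77.9 to 291 CPM under 5-Ph-IAA. In such bulk libraries fewer cells that express a gene and less RNA per cell cannot be told apart.

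At 3 h, 482 of 6069 tested genes (7.94%) differed between 5-Ph-IAA and DMSO at an adjusted p under 0.05 in edgeR's quasi-likelihood test with Benjamini-Hochberg adjustment, fitted over all 15 libraries. Of these, 308 (5.07% of tested genes) were higher and 174 (2.87%) lower under 5-Ph-IAA. Among the calls the rises were larger than the falls, with a median of 0.81 log2 over the genes called higher and -0.59 log2 over those called lower, and 102 genes rose and 20 fell by at least a log2 of 1. Of the 102, 72 were nuclear protein-coding, 7 mitochondrially encoded and 19 small noncoding RNAs, and of the 20, 17 were nuclear protein-coding. Without 5-Ph-IAA library 2 no gene of the mitochondrially encoded and small RNA classes was called higher. The median of all tested genes was -0.02 log2. Of the genes called higher, 173 had both group means above the untreated mean and 13 had both below it. In 122 only the 5-Ph-IAA mean was above it. Of those called lower, 57 had both means above the untreated mean and 38 both below, and in 79 only the 5-Ph-IAA mean was below. A rise or fall is thus relative to DMSO and not to untreated cells. In 447 of the 482 the 3 libraries of a group all lay above the 3 of the other, 278 of them higher and 169 lower, while over all tested genes 592 (9.75%) lay above and 622 (10.2%) below in this way. When only the 6 libraries were fitted, 151 genes (2.48% of 6083) passed, 118 higher (1.94%) and 33 lower (0.542%), and 149 of them were among the 482. With replicate number as a block in that fit the count was 555 (9.12%), of which 5.87% of tested genes were higher and 3.25% lower. Without 5-Ph-IAA library 2 it was 324 (5.31% of 6098, with 3.84% higher and 1.48% lower). Without DMSO library 1 it was 272 (4.46% of 6095, with 2.95% higher and 1.51% lower). Scaled on total counts alone the split of the calls moved from 63.9% higher to 49.7% higher, and the median of all tested genes moved to -0.09 log2. The gene lists below were chosen with earlier results of these data known, so their counts describe their members and are no test. Shares over all tested genes are set beside them for scale only. Below, a gene is said to have risen or fallen when it passed in the 15-library fit. Where its call ended in the fit of the 6 libraries alone, or when a library was left out, that is said at the end of the paragraph, with the largest adjusted p over the libraries left out.

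**Figure D1:**
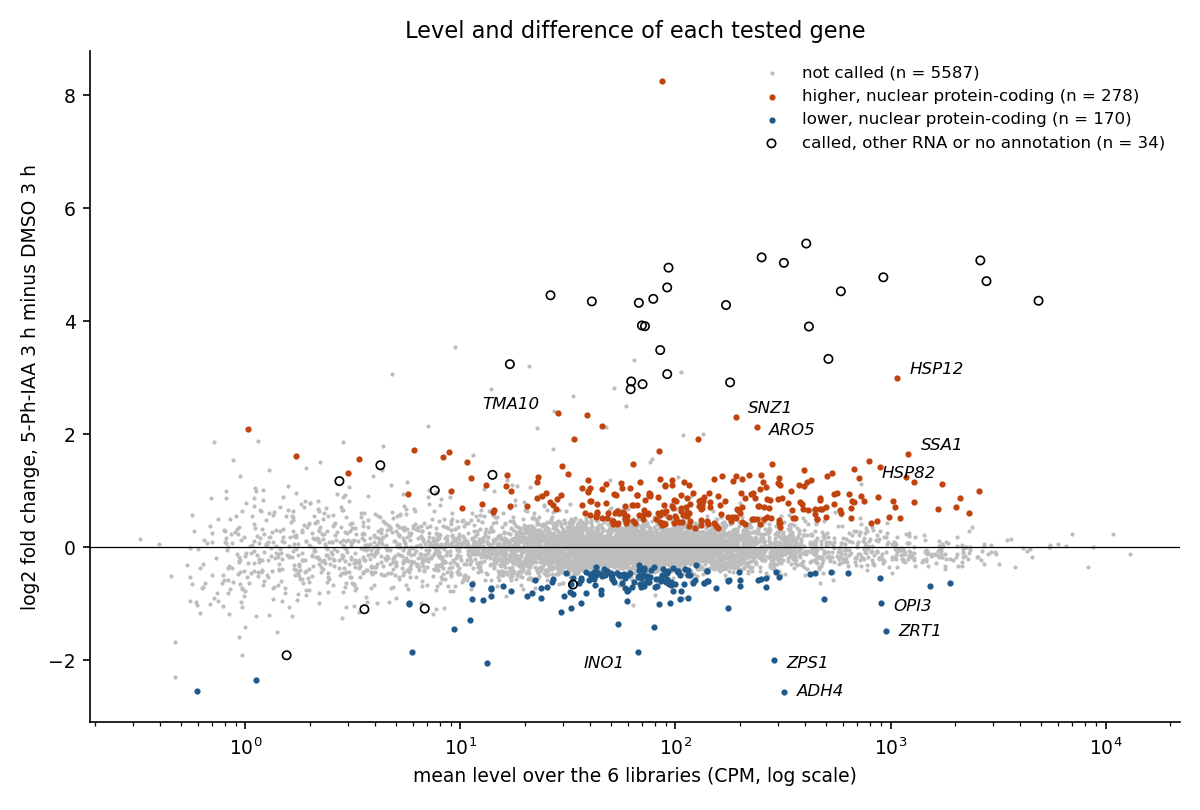
Each point is a tested gene, with its mean level over the 6 libraries (CPM, log scale) on the horizontal axis and the log2 fold change of 5-Ph-IAA over DMSO at 3 h on the vertical axis. Orange and blue points are the 278 nuclear protein-coding genes called higher and the 170 called lower, open circles the 34 called genes of other RNA classes or without annotation, and the highest point (8.25 log2) is RRT15, a gene within the ribosomal DNA that shares its sequence with the large ribosomal RNA.

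The gene targeted by the degron was read first. ZPR1 (YGR211W, R64 chromosome VII, 915241 to 916701) stood at 104, 91.04 and 177 CPM under 5-Ph-IAA and 80.1, 52.7 and 151 CPM in DMSO. The groups overlapped, and each library of 5-Ph-IAA was above the DMSO library of the same number (0.41 log2, adjusted p = 0.47, 0.051 with replicate number as a block). Without DMSO library 3 it passed at an adjusted p of 0.034. A degron acts on the protein, so the mRNA level does not check the depletion. TEF1 and TEF2 both encode eEF1A and are near-identical, so how reads were shared out between them is uncertain. TEF1 stood at 2744, 2861 and 3022 CPM under 5-Ph-IAA and 3895, 3187 and 3539 CPM in DMSO, with the 5-Ph-IAA libraries below those of DMSO (-0.30 log2, adjusted p = 0.115). TEF2 stood at 3288, 3705 and 4511 CPM under 5-Ph-IAA and 3846, 2258 and 4299 CPM in DMSO, with overlap (0.15 log2, adjusted p = 0.718). Of 9 tested translation elongation factors and 8 genes known to handle eEF1A, edgeR called none. At an unadjusted p under 0.05 stood 3 and 1 of them, and DESeq2 called 1 elongation factor lower and no handling factor.

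The 12 largest rises that also passed in the 6 libraries alone, with groups that did not overlap and a mean of at least 10 CPM, were led by HSP12, which encodes a small membrane-protecting stress protein. HSP12 (YFL014W, R64 chromosome VI, 107256 to 107585) stood at 1979.6, 1933 and 1796 CPM under 5-Ph-IAA and 236, 353 and 127 CPM in DMSO. All 5-Ph-IAA libraries were several times above all DMSO libraries, a difference of 2.99 log2, SE 0.27, adjusted p = 4.14e-06, and the untreated mean of 668 CPM lay between the groups. SNZ1, of vitamin B6 synthesis, stood at 222, 212 and 516 CPM under 5-Ph-IAA and 55.03, 53.3 and 86.2 CPM in DMSO (2.30 log2, adjusted p = 0.000182). Library 3 was the highest in both groups, and the lowest 5-Ph-IAA library was still above the highest of DMSO. ARO5 stood at 380.1, 387 and 400.0 CPM under 5-Ph-IAA and 98.5, 80.2 and 88.9 CPM in DMSO, and its libraries were close together within each group (2.13 log2, SE 0.13, adjusted p = 8.52e-08). CYC7, the cytochrome c isoform made when oxygen is low, stood at 88.4, 73.2 and 60.7 CPM under 5-Ph-IAA and 15.97, 18.2 and 15.8 CPM in DMSO (2.15 log2, adjusted p = 2.49e-05).

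TMA10, whose product associates with ribosomes, rose 5.18 times, from 6.61, 11.7 and 8.93 CPM in DMSO to 40.4, 49.98 and 52.4 CPM under 5-Ph-IAA (2.37 log2, adjusted p = 0.000234). COX26, a small protein of the cytochrome c oxidase supercomplex, rose 2.83 times at low levels, from 5.101, 5.44 and 5.83 CPM to 16.4, 21.3 and 10.3 CPM (1.50 log2, adjusted p = 0.00149). The others were the chaperone genes CUR1, SSA1 and HSP82, described below, and 3 genes of poorly known role. These were YNR068C (2.34 log2), YER053C-A (1.92) and BSC5 (1.92). YNR068C and BSC5 are neighbours on chromosome XIV and are separated by 238 bp. Both stood higher in every 5-Ph-IAA library than in any DMSO library, as the rule of choice required.

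**Figure D2:**
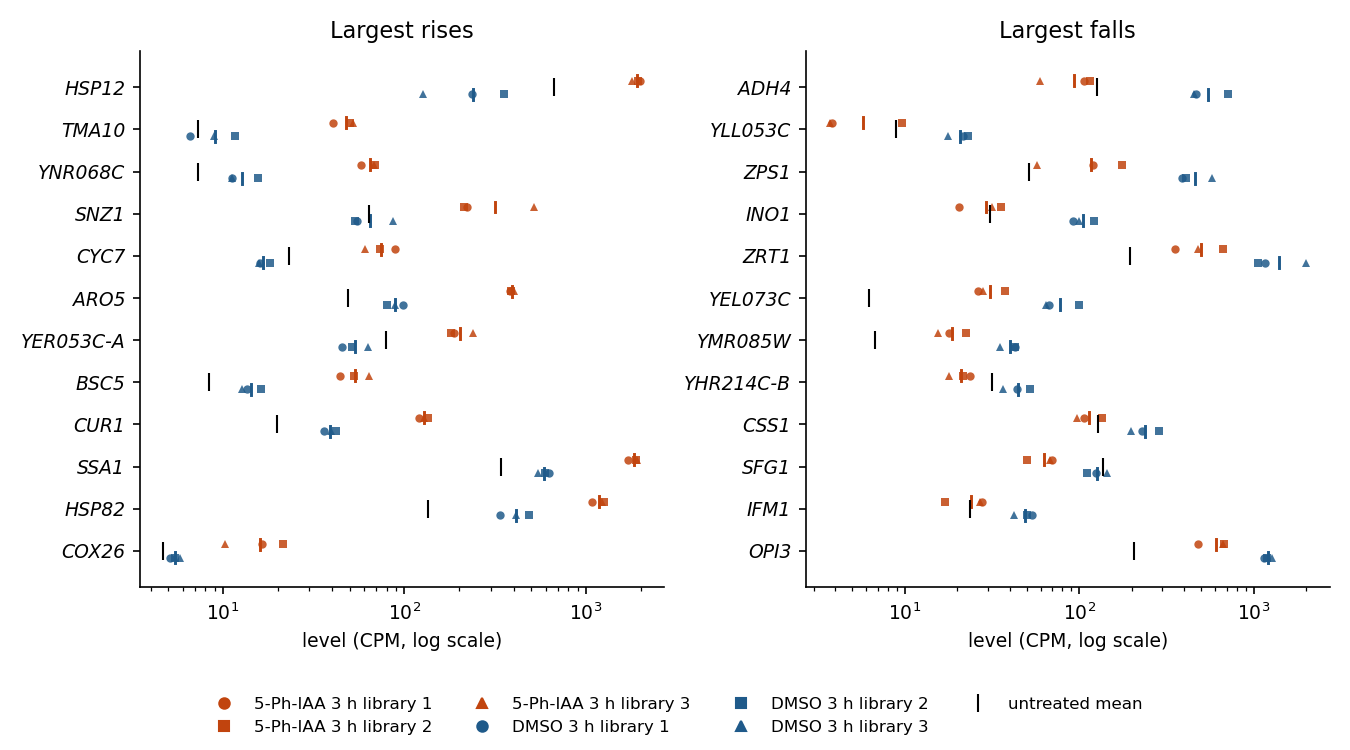
Levels (CPM, log scale) of the 12 largest rises, left, and the 12 largest falls, right, that passed both in the 15-library fit and in the 6 libraries alone. Orange symbols are the 3 libraries of 5-Ph-IAA and blue symbols those of DMSO at 3 h, with shapes for the library number and coloured ticks for the means, and black ticks are means of the 3 untreated libraries. Genes were picked with a mean of at least 10 CPM and groups that do not overlap, so the gap between orange and blue symbols was a condition of choice.

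Chaperone genes that Hsf1 activates rose as a group. Of 19 core Hsf1 targets, all of which were tested, 18 rose and none fell, against 5.07% and 2.87% of all tested genes, and the median was 1.11 log2. The count was 13 in the 6 libraries alone, 18 when 5-Ph-IAA library 2 was left out and 16 when DMSO library 1 was, and HSP42 was the member that did not pass (0.64 log2, adjusted p = 0.217, but 0.0133 with the replicate block). CUR1 (YPR158W, R64 chromosome XVI, 843262 to 844020), a sorting factor that directs misfolded proteins to deposits, stood at 121, 136 and 128 CPM under 5-Ph-IAA and 35.96, 42.2 and 39.3 CPM in DMSO (1.70 log2, SE 0.11, adjusted p = 1.6e-07). Every 5-Ph-IAA library was about as high as the others of its group and far above the 3 of DMSO. SSA1, the stress-induced cytosolic Hsp70, stood at 1700.4, 1879 and 1912 CPM under 5-Ph-IAA and 622, 592 and 544 CPM in DMSO (1.64 log2, SE 0.12, adjusted p = 3.37e-07). Its near-identical copy SSA2, with which it could share reads, stood at 2094, 2286 and 2722 CPM under 5-Ph-IAA and 1088, 848 and 1359.5 CPM in DMSO (1.11 log2, adjusted p = 0.00354). HSP82, the stress-induced Hsp90, stood at 1073, 1254 and 1228 CPM under 5-Ph-IAA and 338, 486 and 411 CPM in DMSO (1.53 log2, SE 0.14, adjusted p = 5.49e-06), again without overlap. In untreated cells the means were 19.96 CPM for CUR1, 338 for SSA1 and 134 for HSP82, below all 6 libraries at 3 h. Not every member shared this. The untreated mean was above the DMSO mean for YDJ1 (1044 against 750 CPM), FES1 (176 against 154), SSA2 (1137 against 1098) and HCH1 (297 against 292). It was below the DMSO mean for the rest of the list, by little for STI1 (295 against 308) and CPR6 (155 against 159). MBF1, a coactivator that works with Gcn4, was also on this list and rose 2.34 times (1.23 log2, adjusted p = 2.19e-05).

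The Hsf1 binding motif is built of repeats of GAA and TTC, and it was searched for in the promoter window of each gene, taken as 250 bases before to 50 bases after the annotated gene start. The pair GAANNTTC lay in 8 of the 19 windows of the core targets against 11.98% of the windows of all 5699 tested nuclear protein-coding genes, where N is any base. A trio, which is that pair extended at either side to 3 units of GAA or TTC in turn, lay in 5 of the 19 against 0.790%. A match is a description of letters on either strand, and a window without one says nothing about Hsf1. Motif shares of a list, here and below, are traits of the list as chosen and not results of the comparison. The windows shown belong to the list's called gene of smallest adjusted p with the pair, CUR1, and with the trio, HSP78, and capitals mark the motif (RefSeq sequence, build R64, each 5′ to 3′ on the strand of its gene). The window of CUR1 is chrXVI:843012-843311, plus strand, and that of HSP78 is chrIV:974194-974493, minus strand, where overlapping trios form a longer run. The window of ZPR1 itself also holds the pair and a trio.
CUR1: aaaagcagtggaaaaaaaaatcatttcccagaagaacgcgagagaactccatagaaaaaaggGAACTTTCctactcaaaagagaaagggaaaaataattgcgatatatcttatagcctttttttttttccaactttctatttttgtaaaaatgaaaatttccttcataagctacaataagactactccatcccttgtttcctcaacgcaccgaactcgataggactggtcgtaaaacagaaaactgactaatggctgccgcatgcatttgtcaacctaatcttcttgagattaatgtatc
HSP78: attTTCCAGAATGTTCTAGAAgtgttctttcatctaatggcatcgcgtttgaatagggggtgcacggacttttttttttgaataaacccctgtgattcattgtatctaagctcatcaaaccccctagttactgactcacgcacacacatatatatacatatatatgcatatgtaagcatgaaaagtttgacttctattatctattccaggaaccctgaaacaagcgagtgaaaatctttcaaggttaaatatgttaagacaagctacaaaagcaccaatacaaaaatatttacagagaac

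Taken by their roles, the helpers of Hsp90 and Hsp70 moved unevenly. Beside the lists of this paragraph stand 5.07% called higher and 2.87% called lower over all tested genes. The calls named here other than SSE1 and SSE2 also stand on the Hsf1 list, so these counts are not independent of it. Of 14 genes of Hsp90 and its co-chaperones 7 rose and none fell, with a median of 0.34 log2. The constitutive Hsp90 gene HSC82 rose from 1377, 1459 and 1598 CPM to 2606, 2755 and 2767 CPM (0.87 log2, adjusted p = 0.00152), and the co-chaperone genes STI1 (1.31 log2), CPR6 (1.15) and AHA1 (1.09) rose more. The kinase-loading co-chaperone gene CDC37 (0.16 log2, adjusted p = 0.65) and SBA1 (-0.13 log2, adjusted p = 0.582), a co-chaperone that holds Hsp90 closed, did not pass. Of 11 cytosolic Hsp70s and exchange factors 5 rose, which besides SSA1 and SSA2 were the Hsp110 genes SSE2 (0.95 log2, adjusted p = 0.00082) and SSE1 (0.99 log2, adjusted p = 0.00443) and the exchange factor gene FES1 (0.93 log2, adjusted p = 0.00222). The ribosome-bound Hsp70 genes SSB1 and SSB2, which are near-identical, had -0.16 and -0.24 log2 (adjusted p = 0.834 and 0.393), and their partner gene SSZ1 had -0.28 (adjusted p = 0.685). Of 10 cytosolic J-domain proteins, which deliver clients to Hsp70, 3 rose: SIS1 (1.25 log2, adjusted p = 0.00175), APJ1 (0.92 log2, adjusted p = 0.00199) and YDJ1 (0.81 log2, adjusted p = 0.0149). ZUO1, the ribosome-bound J-domain protein, stood at -0.50 log2 (adjusted p = 0.173). Calls that ended in the 6 libraries alone were those of SSE1 (adjusted p = 0.0859), FES1 (0.0697), SIS1 (0.0553) and YDJ1 (0.173). Without DMSO library 1 no call was left for YDJ1 (adjusted p = 0.0634).

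Among 5 genes of aggregate sorting and disaggregation 3 rose, with BTN2 (1.27 log2, adjusted p = 0.00175) and the disaggregase gene HSP104 (0.71 log2, adjusted p = 0.0172) beside CUR1. For this list and that of mitochondrial chaperones, the shares over all tested genes were 5.07% higher and 2.87% lower. The calls of this paragraph other than HSP10 also stand on the Hsf1 list. HSP104 stood at 1474, 1236 and 1201 CPM under 5-Ph-IAA and 723, 843 and 822 CPM in DMSO, without overlap. HSP26, a small heat shock protein, stood at 14.4, 22.9 and 14.99 CPM under 5-Ph-IAA and 7.02, 9.91 and 7.63 CPM in DMSO, without overlap and without passing (1.03 log2, adjusted p = 0.127, but 0.00717 with the replicate block). In mitochondria the disaggregase gene HSP78 stood at 618, 504 and 591 CPM under 5-Ph-IAA and 216, 219 and 234 CPM in DMSO (1.36 log2, SE 0.14, adjusted p = 2.19e-05). The J-domain gene MDJ1 rose 2.1 times (1.07 log2, adjusted p = 8.15e-05), and the chaperonin gene HSP60 overlapped between groups (0.14 log2, adjusted p = 0.79). HSP10, the lid of that chaperonin, rose by less (0.54 log2, adjusted p = 0.00745), and these 3 were the calls among 10 mitochondrial chaperones and proteases. Fitting only the 6 libraries ended the call of HSP104 (adjusted p = 0.0604) and HSP10 (0.133). Fits without DMSO library 1 did not call HSP104 (adjusted p = 0.0807).

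Other arms of protein quality control showed few or no calls, beside 5.07% called higher and 2.87% called lower over all tested genes. None of 14 genes of the CCT chaperonin and prefoldin, which fold actin, tubulin and other new proteins, passed in edgeR or DESeq2 (1 at an unadjusted p under 0.05), and their median was -0.01 log2. None of 11 genes of Cdc48 and ribosome quality control passed with either tool (2 at an unadjusted p under 0.05), and CDC48, the unfolding ATPase, had 0.24 log2, adjusted p = 0.201. Of 32 proteasome genes, 30 had a positive difference and the median was 0.17 log2, but only RPT1 (0.51 log2, adjusted p = 0.0144) and PRE3 (0.43 log2, adjusted p = 0.0319) passed, and neither did without DMSO library 1. The signs were not tested, and the median of all tested genes was -0.02 log2. The proteasome element GGTGGCAAA, the site of the activator Rpn4, lay in 27 of those 32 promoter windows against 1.23% of all. That share is a trait of the list and not a result of the comparison, in which 2 of the 32 were called. Of 16 genes of ubiquitin and its quality control ligases 3 rose. The polyubiquitin gene UBI4 stood at 579.8, 463 and 479.8 CPM under 5-Ph-IAA and 261, 356 and 354 CPM in DMSO (0.65 log2, adjusted p = 0.00614). The others were the conjugating enzyme gene UBC5 (0.74 log2, adjusted p = 0.0208) and the activating enzyme gene UBA1 (0.43 log2, adjusted p = 0.0321). In the endoplasmic reticulum, of 15 genes of folding and the unfolded protein response none rose and 2 fell, SIL1 (-0.64 log2, adjusted p = 0.00257) and FPR2 (-0.64 log2, adjusted p = 0.00323). KAR2, the Hsp70 of that compartment, had -0.21 log2, adjusted p = 0.429. The fit of the 6 libraries alone lost RPT1 (adjusted p = 0.138), PRE3 (0.22), UBI4 (0.111), UBC5 (0.121), UBA1 (0.238), SIL1 (0.0642) and FPR2 (0.0784). When DMSO library 1 was left out the call ended for RPT1 (adjusted p = 0.0691) and UBA1 (0.107). Leaving out DMSO library 2 ended the call of PRE3 (adjusted p = 0.0953) and UBC5 (0.0767).

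Genes of amino acid synthesis rose across several pathways. In arginine and ornithine synthesis 7 of 10 genes rose (against 5.07% of all tested genes) and none fell (median 0.64 log2). ORT1, the mitochondrial ornithine exporter, stood at 309, 275 and 269 CPM under 5-Ph-IAA and 127, 124 and 117 CPM in DMSO (1.21 log2, SE 0.10, adjusted p = 2.6e-06). The lowest 5-Ph-IAA library was far above the highest of DMSO. ARG7 (1.16 log2) and ARG4 (0.80) rose too, while ARG3 had -0.11 log2, adjusted p = 0.718 and ARG1 had 0.61 log2, adjusted p = 0.114, but 0.0184 with the replicate block. In histidine synthesis 4 of 7 rose (median 0.81 log2). HIS5, the aminotransferase, stood at 319.8, 257 and 481 CPM under 5-Ph-IAA and 144, 124 and 172 CPM in DMSO (1.27 log2, adjusted p = 0.000397) with library 3 highest in both groups. HIS4 (0.89 log2, adjusted p = 0.000449), HIS2 (0.81 log2, adjusted p = 0.000189) and HIS1 (0.82 log2, adjusted p = 0.00176) rose too. In lysine synthesis 4 of 9 rose and all 9 had a positive difference (median 0.50). LYS2, the aminoadipate reductase, stood at 505, 510.2 and 527 CPM under 5-Ph-IAA and 242, 230.1 and 246 CPM in DMSO (1.10 log2, adjusted p = 2.14e-05). LYS20 of the first step rose with groups that overlapped (0.96 log2, adjusted p = 0.0385). Its near-identical copy LYS21, with which it could share reads, did not pass (0.54 log2, adjusted p = 0.114, but 0.0334 with the replicate block). The lysine count was 1 in the 6 libraries alone and 7 with the replicate block. With the 6 libraries alone the call ended for HIS1 (adjusted p = 0.0644) and LYS20 (0.202). Leaving out DMSO library 1 ended the call of LYS20 (adjusted p = 0.151).

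Among 11 genes of branched-chain amino acid synthesis 6 rose and none fell (median 0.76 log2), with 2 left in the 6 libraries alone and 4 without DMSO library 1. All tested genes, as the scale for this and the next lists, had 5.07% called higher and 2.87% called lower. LEU4, which starts leucine synthesis, stood at 561, 600.1 and 609.5 CPM under 5-Ph-IAA and 269, 244 and 267 CPM in DMSO (1.18 log2, SE 0.11, adjusted p = 3.95e-06). ILV2, the catalytic subunit of the first shared step, stood at 823, 876 and 838 CPM under 5-Ph-IAA and 424, 408 and 485 CPM in DMSO (0.95 log2, adjusted p = 9.76e-05). LEU2 rose (1.10 log2, adjusted p = 0.00825), but W303 strains commonly carry mutant alleles of LEU2, HIS3, TRP1, URA3 and ADE2 and the labels do not give those of this strain. The mitochondrial aminotransferase gene BAT1 had groups that overlapped (0.78 log2, adjusted p = 0.0612, but 0.00139 with the replicate block). Of 15 genes of aromatic amino acid synthesis and breakdown 9 rose (median 0.65), led by ARO8 (0.93 log2, adjusted p = 2.19e-05), an aminotransferase, and ARO3 (1.25 log2, adjusted p = 3.27e-05), which starts the shared pathway. ARO3 stood at 1977, 1593 and 1393 CPM under 5-Ph-IAA and 764, 705 and 623 CPM in DMSO. TRP5, TRP2 and TRP4 of the tryptophan branch had 0.83, 0.72 and 0.74 log2, and the breakdown genes ARO9 (0.38 log2, adjusted p = 0.054, but 0.0295 with the replicate block) and ARO10 (0.06 log2, adjusted p = 0.844) did not pass. The glycine cleavage genes GCV1 (1.21 log2, adjusted p = 2.49e-05), GCV2 (0.91 log2, adjusted p = 0.00263) and GCV3 (0.88 log2, adjusted p = 0.000222) were the 3 calls among 14 genes of glycine, serine and single-carbon metabolism. GCV1 stood at 223, 222 and 189 CPM under 5-Ph-IAA and 91.2, 94.05 and 87.5 CPM in DMSO, so that each group was tight and the groups were apart. The call that ended in the 6 libraries alone was that of LEU2 (adjusted p = 0.0966).

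In methionine synthesis and sulfate assimilation 4 of 19 genes rose, MET17 (1.27 log2, adjusted p = 0.00029), MET16 (0.91 log2, adjusted p = 0.000602), STR3 (1.11 log2, adjusted p = 0.00354) and MET10 (0.74 log2, adjusted p = 0.00431). Shares of 5.07% higher and 2.87% lower over all tested genes stand beside the lists of this paragraph. SAM2, which makes S-adenosylmethionine, stood at 287, 295 and 515 CPM under 5-Ph-IAA and 521, 411 and 782 CPM in DMSO with overlap (-0.64 log2, adjusted p = 0.235, but 0.0109 with the replicate block). Of 14 genes that make glutamate, glutamine, asparagine, threonine and proline 4 rose, led by HOM2 (1.16 log2, adjusted p = 0.000405) and HOM3 (0.86 log2, adjusted p = 0.00604) of the threonine and methionine branch. GDH1, the main ammonium-fixing dehydrogenase, had -0.28 log2, adjusted p = 0.271. GCN4 itself stood at 1195, 1153 and 1003 CPM under 5-Ph-IAA and 1359.8, 1301 and 913 CPM in DMSO and did not differ in mRNA beyond its spread (-0.09 log2, adjusted p = 0.792). Of 13 genes of Gcn4 control and of the initiation factor eIF2B only PCL5, a cyclin that drives Gcn4 breakdown, rose (0.77 log2, adjusted p = 0.0454), and it passed in 2 of the 6 fits that left out a library. Of the permeases, BAP3 (0.71 log2, adjusted p = 0.000639), BAP2 (0.70 log2, adjusted p = 0.00263) and the proline permease gene PUT4 (0.73 log2, adjusted p = 0.00267) rose. The general permease gene GAP1 (-0.54 log2, adjusted p = 0.00825) and the ammonium permease gene MEP2 (-0.68 log2, adjusted p = 0.0272) fell, among 16 amino acid and ammonium permeases. GAP1 stood at 715, 746 and 709 CPM under 5-Ph-IAA and 1042, 1092 and 1029 CPM in DMSO, with all 5-Ph-IAA libraries below those of DMSO and above the untreated mean of 425 CPM. Of 19 cytosolic aminoacyl-tRNA synthetases only KRS1, that for lysine, rose (0.52 log2, adjusted p = 0.00803). Fitting only the 6 libraries ended the call of MET10 (adjusted p = 0.0907), HOM3 (0.0965), PCL5 (0.209), BAP2 (0.0619), PUT4 (0.0588), GAP1 (0.104), MEP2 (0.132) and KRS1 (0.178). Fits without 5-Ph-IAA library 2 did not call PCL5 (adjusted p = 0.174) and MEP2 (0.109).

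The core letters of the Gcn4 site, TGACTC, lay in 6 of 10 promoter windows of the arginine list, 6 of 7 of histidine, 4 of 9 of lysine, 6 of 11 of the branched-chain and 5 of 15 of the aromatic list, against 8.21% of all windows. Windows of 4 of these pathways are shown, each of the called gene of smallest adjusted p that holds the letters, with TGACTC in capitals (RefSeq, build R64, 5′ to 3′ on the strand of the gene). They are chrXV:570758-571057, minus strand for ORT1, chrIX:142678-142977, plus strand for HIS5, chrII:473877-474176, minus strand for LYS2 and chrXIV:426705-427004, minus strand for LEU4. Counted from the gene start the match began at -231 in ORT1, -202 in HIS5, -194 in LYS2 and -101 in LEU4.
ORT1: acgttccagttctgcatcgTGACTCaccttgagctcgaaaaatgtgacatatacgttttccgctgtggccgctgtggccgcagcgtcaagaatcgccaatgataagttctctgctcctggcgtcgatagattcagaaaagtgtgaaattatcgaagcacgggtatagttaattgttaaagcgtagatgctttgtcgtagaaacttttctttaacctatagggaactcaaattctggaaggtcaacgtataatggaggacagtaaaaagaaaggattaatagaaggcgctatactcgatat
HIS5: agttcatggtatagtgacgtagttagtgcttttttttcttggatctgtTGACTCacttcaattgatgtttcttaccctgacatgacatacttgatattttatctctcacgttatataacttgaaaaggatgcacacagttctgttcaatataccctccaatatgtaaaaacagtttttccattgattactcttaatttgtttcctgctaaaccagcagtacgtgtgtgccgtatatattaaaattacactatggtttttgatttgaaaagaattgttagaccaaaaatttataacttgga
LYS2: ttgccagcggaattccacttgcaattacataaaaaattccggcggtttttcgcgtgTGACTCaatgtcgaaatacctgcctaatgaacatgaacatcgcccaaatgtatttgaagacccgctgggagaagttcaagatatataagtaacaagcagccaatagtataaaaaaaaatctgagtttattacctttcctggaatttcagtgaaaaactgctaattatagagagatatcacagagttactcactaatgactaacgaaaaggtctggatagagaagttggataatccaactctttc
LEU4: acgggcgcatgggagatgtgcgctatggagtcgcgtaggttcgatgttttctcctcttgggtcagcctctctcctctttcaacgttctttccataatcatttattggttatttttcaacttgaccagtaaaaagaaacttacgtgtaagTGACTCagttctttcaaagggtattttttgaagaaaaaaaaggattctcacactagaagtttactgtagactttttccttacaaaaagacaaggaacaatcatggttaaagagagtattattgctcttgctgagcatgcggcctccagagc

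Cofactor pathways held individual genes with clear rises. RIB5, riboflavin synthase, stood at 1111, 924 and 901 CPM under 5-Ph-IAA and 382, 391 and 348 CPM in DMSO (1.39 log2, SE 0.12, adjusted p = 2.6e-06). BNA1, of NAD synthesis from tryptophan, stood at 348, 423 and 468 CPM under 5-Ph-IAA and 150.4, 125 and 170.4 CPM in DMSO (1.48 log2, SE 0.15, adjusted p = 2.14e-05). In both the groups were well apart. Of 12 genes of NAD synthesis 5 rose and the nicotinic acid permease gene TNA1 fell (-0.58 log2, adjusted p = 0.0238), with 1 rise and no fall left in the 6 libraries alone and 3 rises and no fall without either 5-Ph-IAA library 2 or DMSO library 1. Of 20 genes of vitamin B6, riboflavin, thiamine and biotin 5 rose and 2 fell, and the 2 falls were called in neither the 6 libraries alone nor without 5-Ph-IAA library 2. SNO1, which lies 449 bp from SNZ1 and whose product works with that of SNZ1, rose (1.44 log2, adjusted p = 0.00364), as did the B6 salvage gene PDX3 (0.73 log2, adjusted p = 0.000975). Of 31 mitochondrial carriers, which move metabolites across the inner membrane, 9 rose and 2 fell, and 6 rose and 1 fell without DMSO library 1. Besides ORT1, PIC2, a phosphate and copper carrier, stood at 398, 421 and 413 CPM under 5-Ph-IAA and 178, 201 and 181 CPM in DMSO (1.14 log2, adjusted p = 2.14e-05). GGC1 (1.07 log2), which carries guanine nucleotides, OAC1 (0.93), which carries oxaloacetate, and ODC2 (0.86), which carries oxodicarboxylates, also rose. The ADP/ATP carrier gene PET9 had -0.06 log2, adjusted p = 0.834 and YHM2 fell (-0.47 log2, adjusted p = 0.0303). Of 21 genes of the citrate cycle 4 rose (against 5.07% of all tested genes), and the main aconitase gene ACO1 had -0.03 log2 (adjusted p = 0.929). The list of carriers was drawn up after values of these data had been seen. With the 6 libraries alone the call ended for TNA1 (adjusted p = 0.152) and YHM2 (0.228). Leaving out 5-Ph-IAA library 2 ended the call of TNA1 (adjusted p = 0.11). Without DMSO library 1 no call was left for YHM2 (adjusted p = 0.141).

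Stress genes outside the Hsf1 set rose in part. Of 24 genes under the general stress factors Msn2 and Msn4, 4 rose and none fell (median 0.38 log2), against 5.07% and 2.87% of all tested genes. The 4 were HSP12, NQM1 (1.23 log2, adjusted p = 0.00833), the catalase gene CTT1 (1.47 log2, adjusted p = 0.0112) and HOR7 (0.71 log2, adjusted p = 0.0112). With the replicate block 8 rose. CTT1 stood at 113, 109 and 58.2 CPM under 5-Ph-IAA and 31.4, 42.1 and 26.3 CPM in DMSO, and 5-Ph-IAA library 3 was the lowest of its group. The trehalose synthesis gene TPS2 on the same list stood lower in every 5-Ph-IAA library without passing (-0.37 log2, adjusted p = 0.231). None of 18 genes of trehalose and glycogen passed in edgeR or DESeq2 (3 at an unadjusted p under 0.05). The stress response element AGGGG lay in 15 of the 24 windows against 21.9% of all. The window of HSP12, the strongest call on the list, is shown with its AGGGG matches in capitals, which read CCCCT on the strand of the gene (chrVI:107006-107305, plus strand, RefSeq build R64). The call that ended in the 6 libraries alone was that of HOR7 (adjusted p = 0.165). Without DMSO library 1 no call was left for CTT1 (adjusted p = 0.0569).
HSP12: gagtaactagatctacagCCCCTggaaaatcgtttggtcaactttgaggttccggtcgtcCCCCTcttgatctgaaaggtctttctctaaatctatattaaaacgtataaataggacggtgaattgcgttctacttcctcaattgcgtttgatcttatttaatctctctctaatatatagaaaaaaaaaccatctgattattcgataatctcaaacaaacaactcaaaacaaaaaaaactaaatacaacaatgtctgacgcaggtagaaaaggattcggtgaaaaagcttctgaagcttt

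Of 14 genes of weak acid and membrane stress 5 rose and none fell, among them HSP12 again. Beside this and the other lists of the paragraph stand 5.07% called higher and 2.87% called lower over all tested genes. The acid exporter gene PDR12 stood at 194, 222 and 191 CPM under 5-Ph-IAA and 108, 136 and 116 CPM in DMSO (0.75 log2, adjusted p = 0.00221). HSP30, a brake on the plasma membrane proton pump, stood at 425, 391 and 461 CPM under 5-Ph-IAA and 134, 161 and 254 CPM in DMSO (1.22 log2, adjusted p = 0.0168). The 5 became 3 in the 6 libraries alone and 3 without DMSO library 1, and the pump gene PMA1 had -0.07 log2, adjusted p = 0.796. Of 13 multidrug resistance genes the exporter genes ATR1 (0.80 log2, adjusted p = 0.000397) and SNQ2 (0.71 log2, adjusted p = 0.00663) rose, while PDR5, the best-known pump of the group, had 0.17 log2, adjusted p = 0.547. Of 22 cell wall genes 4 rose, PIR3 (1.203 log2, adjusted p = 0.00128), PRM5 (0.81 log2, adjusted p = 0.00183), SED1 (0.61 log2, adjusted p = 0.0122) and BGL2 (0.53 log2, adjusted p = 0.019). PIR3 stood at 109, 136 and 111 CPM under 5-Ph-IAA and 53.8, 46.1 and 54.1 CPM in DMSO and was the member left in the 6 libraries alone. Of 26 genes of thioredoxin, glutathione and superoxide defence 3 rose: TRX2 (0.82 log2, adjusted p = 0.0066), CTT1 and the oxidative stress factor gene YAP1 (0.45 log2, adjusted p = 0.0219). The hexose transporter gene HXT7, which shares near-identical sequence with HXT6, rose (1.03 log2, adjusted p = 0.00545), and the glucose sensor gene RGT2 fell (-0.63 log2, adjusted p = 0.00237). ATG41 (1.18 log2, adjusted p = 0.00207) was the call among 18 tested autophagy genes. Fitting only the 6 libraries ended the call of PRM5 (adjusted p = 0.0566), SED1 (0.145), BGL2 (0.19), YAP1 (0.2) and RGT2 (0.0993). Fits without 5-Ph-IAA library 2 did not call YAP1 (adjusted p = 0.081). When DMSO library 1 was left out the call ended for HSP30 (adjusted p = 0.0902) and SED1 (0.0594). Leaving out DMSO library 2 ended the call of BGL2 (adjusted p = 0.0576).

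Genes of zinc uptake and use held 3 of the 12 largest falls that passed in both fits with at least 10 CPM and without overlap. ADH4 (YGL256W, R64 chromosome VII, 15159 to 16307), an alcohol dehydrogenase gene that Zap1 switches on, stood at 106, 115 and 59.6 CPM under 5-Ph-IAA and 469.6, 709.6 and 458 CPM in DMSO (-2.56 log2, SE 0.21, adjusted p = 2.49e-06). All 3 libraries of 5-Ph-IAA were below every DMSO library, and their mean lay below the untreated mean of 126 CPM. ZRT1, the high-affinity zinc transporter gene that lies 4671 bp from ADH4, stood at 356, 664 and 479 CPM under 5-Ph-IAA and 1158, 1061 and 1993 CPM in DMSO (-1.49 log2, adjusted p = 0.0055), with DMSO library 3 the highest. ZPS1, a cell surface protein gene, stood at 119, 176 and 57.5 CPM under 5-Ph-IAA and 388, 412 and 575 CPM in DMSO (-1.99 log2, adjusted p = 0.00606), and 5-Ph-IAA library 3 was the lowest. These were the 3 calls among 15 genes of the Zap1 regulon, against 2.87% called lower over all tested genes. None of the 15 rose (median -0.22 log2), and all 3 calls held in the 6 libraries alone. The low-affinity transporter gene FET4 had -0.49 log2, adjusted p = 0.105, but 0.00864 with the replicate block, and the vacuolar zinc transporter gene ZRC1 had -0.22 log2, adjusted p = 0.42. None of 17 genes of iron uptake under Aft1 passed in edgeR or DESeq2 (3 at an unadjusted p under 0.05), and with the replicate block 4 fell and 1 rose. Of these, the iron reductase gene FRE1 stood at 35.7, 46.5 and 87.2 CPM under 5-Ph-IAA and 73.6, 96.5 and 141 CPM in DMSO, lower in the 5-Ph-IAA library of each number (-0.85 log2, adjusted p = 0.318, but 0.00278 with the replicate block).

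The zinc response element searched for, ACCTT and AAGGT 1 base apart, lay in the windows of 5 of the 5699 nuclear protein-coding genes tested (0.0877%), of which 2 were among the 170 called lower, and in 2 of the 15 windows of the Zap1 regulon. The window of ZRT1, the called member of the regulon that holds it, is shown with the element in capitals, beginning at -204 from the gene start (chrVII:20728-21027, plus strand, RefSeq build R64). The rest of the regulon may hold sites outside this window or with other letters, which were not searched for.
ZRT1: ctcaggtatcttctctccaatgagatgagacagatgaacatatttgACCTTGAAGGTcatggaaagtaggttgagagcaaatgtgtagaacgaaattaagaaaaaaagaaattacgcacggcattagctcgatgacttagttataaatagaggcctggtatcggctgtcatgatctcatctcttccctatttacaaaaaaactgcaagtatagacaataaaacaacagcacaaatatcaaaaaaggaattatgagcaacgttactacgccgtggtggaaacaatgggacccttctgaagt

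Of 14 genes of inositol and phospholipid synthesis, which the activators Ino2 and Ino4 control, 8 fell (against 2.87% of all tested genes) and none rose, with a median of -0.55 log2. The 8 became 4 in the 6 libraries alone, 6 when 5-Ph-IAA library 2 was left out and 7 when DMSO library 1 was. INO1, which makes inositol phosphate from glucose phosphate, stood at 20.5, 35.6 and 31.8 CPM under 5-Ph-IAA and 92.1, 121 and 100.3 CPM in DMSO (-1.85 log2, SE 0.23, adjusted p = 0.00011). Every 5-Ph-IAA library was below every DMSO library, and the untreated mean was 30.7 CPM. OPI3, which completes the methylation of phosphatidylethanolamine to phosphatidylcholine, stood at 477, 680.3 and 663 CPM under 5-Ph-IAA and 1148, 1199.8 and 1268 CPM in DMSO (-0.99 log2, adjusted p = 0.0077). CKI1, choline kinase, stood at 36.1, 42.6 and 42.96 CPM under 5-Ph-IAA and 69.5, 72.4 and 94.05 CPM in DMSO (-0.96 log2, adjusted p = 0.00312). For these the untreated means were lower than either group, at 206 and 20.4 CPM. The inositol transporter gene ITR1 (-0.68 log2, adjusted p = 0.0112) and the mitochondrial decarboxylase gene PSD1 (-1.01 log2, adjusted p = 0.00266) fell as well. CHO1, the phosphatidylserine synthase gene, was lower in all 5-Ph-IAA libraries (-0.58 log2, adjusted p = 0.0559, but 0.0131 with the replicate block), and CHO2 overlapped (-0.31 log2, adjusted p = 0.278). PIS1, which joins inositol to lipid, had -0.17 log2, adjusted p = 0.328. The inositol response element was searched for as CATGT directly followed by GAAAT, which lay in 1 of the 5699 windows (0.0175%) and in none of the 14, too rare in this form to describe the list. The window that held it was that of YEL073C, a gene of unknown function that fell 2.56 times, from 67.5, 99.8 and 64.1 CPM to 26.3, 37.6 and 28.1 CPM (-1.35 log2, adjusted p = 0.00235). In sterol synthesis 2 of 23 ergosterol genes rose, ERG5 (0.54 log2, adjusted p = 0.0187) and ERG10 (0.48 log2, adjusted p = 0.0402). Of 9 fatty acid synthesis genes ELO1 rose (0.70 log2, adjusted p = 0.00176). Its untreated mean of 194 CPM was above the means of 5-Ph-IAA (164) and DMSO (101). Calls that ended in the 6 libraries alone were those of ITR1 (adjusted p = 0.053), PSD1 (0.0687), ERG5 (0.172) and ERG10 (0.251). Without DMSO library 1 no call was left for ERG5 (adjusted p = 0.0624) and ERG10 (0.113).

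Nuclear genes of mitochondrial gene expression were lower by small amounts. For the mitochondrial ribosomal subunits the counts stand against 2.87% called lower and 5.07% called higher over all tested genes. Over all tested genes the median difference was -0.02 log2. Of 38 tested proteins of the large mitochondrial ribosomal subunit 12 fell, none rose, all 38 differences were negative and the median was -0.40 log2. Of 33 of the small subunit 12 fell, none rose, 32 differences were negative and the median was -0.38. MRPL1 stood at 73.97, 75.5 and 75.8 CPM under 5-Ph-IAA and 124, 109.7 and 114 CPM in DMSO (-0.62 log2, adjusted p = 0.000826). MRPS9 stood at 91.1, 98.02 and 127 CPM under 5-Ph-IAA and 168, 139 and 189.5 CPM in DMSO (-0.64 log2, adjusted p = 0.00538). The groups did not overlap in either gene. For the large and small subunit the counts were 7 and 1 without 5-Ph-IAA library 2, and leaving out DMSO library 1 gave 8 and 2. In the 6 libraries alone they were 1 and 0. Further factors were put into lists after values of these data had been seen. Like those of all lists, which were chosen with earlier results known, their counts and signs describe their members only and are no test. For these further lists they are not set against the shares over all tested genes. Of 13 mitochondrial aminoacyl-tRNA synthetases 6 fell and all 13 differences were negative (median -0.48 log2), with 3 called when either 5-Ph-IAA library 2 or DMSO library 1 was left out. MSK1, that for lysine, stood at 57.7, 60.8 and 59.6 CPM under 5-Ph-IAA and 91.8, 91.8 and 91.3 CPM in DMSO (-0.63 log2, adjusted p = 0.00267). NAM2, that for leucine, stood at 60.6, 51.1 and 52.1 CPM under 5-Ph-IAA and 90.1, 87.1 and 87.4 CPM in DMSO (-0.69 log2, adjusted p = 0.00125). Of 32 other expression factors 9 fell and none rose (median -0.31). IFM1, the initiation factor, stood at 27.7, 17.05 and 26.99 CPM under 5-Ph-IAA and 53.9, 50.05 and 42.4 CPM in DMSO (-0.99 log2, adjusted p = 0.0023), and CBS2, an activator of cytochrome b translation, had -0.67 log2. The elongation factor gene TUF1 had -0.38 log2, adjusted p = 0.166 and the RNA polymerase gene RPO41 had -0.24 log2, adjusted p = 0.376, and without 5-Ph-IAA library 2 the count was 2. In untreated cells MRPL1, MSK1 and IFM1 had means of 81.5, 34.5 and 23.8 CPM. Fitting only the 6 libraries ended the call of MRPS9 (adjusted p = 0.111).

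Nuclear genes of the respiratory chain and the ATP synthase did not share this direction. Of 35, 4 rose and none fell (median 0.16 log2), CYC7 by far the most, then COX5B (0.58 log2, adjusted p = 0.0375), the isoform used when oxygen is low, NDE1 (0.52 log2, adjusted p = 0.0368) and QCR8 (0.50 log2, adjusted p = 0.0374). The count was 1 in the 6 libraries alone, without 5-Ph-IAA library 2 and on total counts alone, and 8 with the replicate block. Next to this and the following lists stand 5.07% called higher and 2.87% called lower over all tested genes. Of 18 hypoxic and anaerobic cell wall genes 3 rose and none fell (median -0.01 log2), which were CYC7, COX5B and ROX1, the repressor of hypoxic genes (0.87 log2, adjusted p = 0.0108). Other isoforms used at low oxygen did not pass, with -0.81 log2 (adjusted p = 0.197) for ANB1, of eIF5A, and 0.04 (adjusted p = 0.947) for AAC3, an ADP/ATP carrier, and the cell wall gene DAN1 had -1.18 (adjusted p = 0.279). That count was 1 in the 6 libraries alone, 2 without 5-Ph-IAA library 2 and 1 when DMSO library 1 was left out. HEM13, a hypoxic gene of heme synthesis, had -0.13 log2, adjusted p = 0.694. Of 20 genes of mitochondrial import ERV1 rose (0.55 log2, adjusted p = 0.00272) and PAM18 fell (-0.50 log2, adjusted p = 0.00886), with 19 of 20 differences negative. A single call in each direction among 20 is near the shares over all tested genes. The median of all tested genes was -0.02 log2, and the signs were not tested. The fit of the 6 libraries alone lost COX5B (adjusted p = 0.169), NDE1 (0.18), QCR8 (0.192), ROX1 (0.117), ERV1 (0.0711) and PAM18 (0.131). When 5-Ph-IAA library 1 was left out the call ended for QCR8 (adjusted p = 0.148). Leaving out 5-Ph-IAA library 2 ended the call of PAM18 (adjusted p = 0.0501). Without 5-Ph-IAA library 3 no call was left for NDE1 (adjusted p = 0.114). Fits without DMSO library 1 did not call COX5B (adjusted p = 0.117) and ROX1 (0.057).

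Nucleotide synthesis held further falls. URA1, which makes orotate, stood at 393, 322 and 306 CPM under 5-Ph-IAA and 758, 526 and 644 CPM in DMSO (-0.92 log2, adjusted p = 0.000463). URA3 (-0.71 log2, adjusted p = 0.0133) and URA6 (-0.54 log2, adjusted p = 0.0344, 0.0526 with the replicate block) also fell, which made 3 calls among 12 genes of a pyrimidine list drawn up after values had been seen. URA2, which starts the pathway, had 0.09 log2, adjusted p = 0.754. IMD2, of guanine nucleotide synthesis, stood at 41.2, 33.3 and 53.2 CPM under 5-Ph-IAA and 98.2, 70.8 and 179.7 CPM in DMSO (-1.41 log2, adjusted p = 0.00221), lowest in 5-Ph-IAA library 2 and highest in DMSO library 3. IMD4 fell by less (-0.44 log2, adjusted p = 0.0175). ADE12, of adenine nucleotide synthesis, rose (0.80 log2, adjusted p = 0.00221), so that of 15 purine genes 1 rose and 2 fell. For the purine list and the mating lists that follow, the scale is 5.07% higher and 2.87% lower over all tested genes. Among mating and cycle genes FAR1 (-0.56 log2, adjusted p = 0.00959), which arrests the cycle in response to pheromone, TEC1 (-0.48 log2, adjusted p = 0.0233) and the pheromone protease gene BAR1 (-0.79 log2, adjusted p = 0.00687) fell. These were the calls among 16 pheromone response genes and 7 a-cell genes, and none of the 3 passed in the 6 libraries alone. SFG1, whose product has a role in growth form, stood at 69.7, 49.98 and 67.6 CPM under 5-Ph-IAA and 124, 111 and 144 CPM in DMSO and was among the 12 largest falls (-0.999 log2, SE 0.14, adjusted p = 0.00029). With the 6 libraries alone the call ended for URA3 (adjusted p = 0.145), URA6 (0.164), IMD2 (0.0632), IMD4 (0.179), FAR1 (0.146), TEC1 (0.108) and BAR1 (0.108). Leaving out 5-Ph-IAA library 1 ended the call of URA6 (adjusted p = 0.135). Without 5-Ph-IAA library 2 no call was left for URA3 (adjusted p = 0.0671) and IMD4 (0.0886). Fits without DMSO library 1 did not call TEC1 (adjusted p = 0.0758).

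Of the 12 largest falls selected in this way several were of genes with poorly known roles. YMR085W (-1.15 log2, adjusted p = 0.00657) and CSS1 (-1.08 log2, adjusted p = 0.00165) fell without overlap, as did YLL053C (-2.04 log2, adjusted p = 0.000828), whose end overlaps that of the water channel gene AQY2 on the same strand. AQY2 itself stood at 3.22, 2.32 and 2.18 CPM under 5-Ph-IAA and 11.1, 7.98 and 8.81 CPM in DMSO and fell too (-1.86 log2, adjusted p = 0.00858). The next genes, at mean levels under 10 CPM, are named after their values were seen. SPS4, a gene of sporulation, stood at 5.97, 5.42 and 3.93 CPM under 5-Ph-IAA and 15.4, 11.6 and 13.5 CPM in DMSO (-1.44 log2, adjusted p = 0.00534), and its neighbour YOR314W at 0.153, 0.387 and 0.436 CPM under 5-Ph-IAA and 2.93, 1.25 and 1.55 CPM in DMSO (-2.36 log2, adjusted p = 0.00911). BSC4 stood at 0.153, 0 and 0.218 CPM under 5-Ph-IAA and 0.836, 1.49 and 0.869 CPM in DMSO (-2.55 log2, adjusted p = 0.0153, 0.0721 with the replicate block), and it passed in 4 of the 6 fits that left out a library. YHR214C-B (-1.08 log2, adjusted p = 0.00488) is a transposon gene with near-identical copies elsewhere in the genome. Of 15 phosphate genes PHO8 (0.68 log2, adjusted p = 0.00915) and PHM8 (0.84 log2, adjusted p = 0.0102) rose and VTC3 fell (-0.50 log2, adjusted p = 0.03). Of 20 genes of nitrogen use DAL3 (-0.65 log2, adjusted p = 0.00237) and DUR12 (-0.59 log2, adjusted p = 0.0309) fell, against 2.87% of all tested genes. Of 24 genes of glycolysis and fermentation ADH5 rose (0.71 log2, adjusted p = 0.00268) and TDH2 (-0.64 log2, adjusted p = 0.0186), a near-identical copy of TDH3, and HXK2 (-0.45 log2, adjusted p = 0.0192) fell. Calls that ended in the 6 libraries alone were those of YOR314W (adjusted p = 0.102), BSC4 (0.122), PHO8 (0.111), PHM8 (0.111), VTC3 (0.183), DUR12 (0.146), ADH5 (0.0564), TDH2 (0.167) and HXK2 (0.182). Without 5-Ph-IAA library 2 no call was left for TDH2 (adjusted p = 0.079). Fits without DMSO library 1 did not call PHO8 (adjusted p = 0.0554), VTC3 (0.108) and HXK2 (0.0615). When DMSO library 2 was left out the call ended for DUR12 (adjusted p = 0.118).

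**Figure D3:**
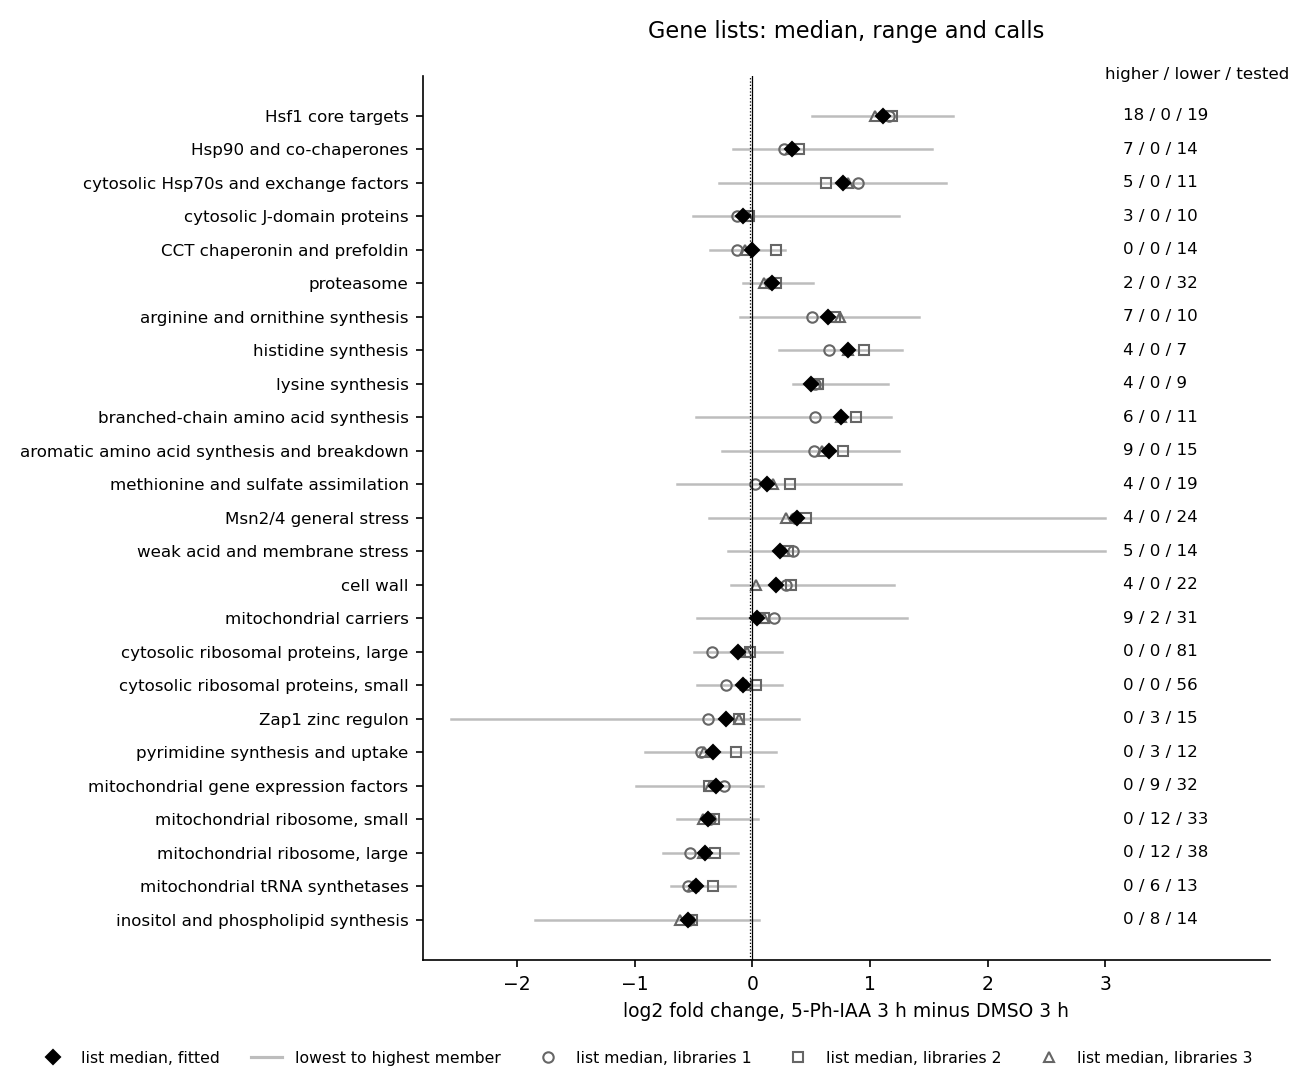
Log2 fold change of 5-Ph-IAA over DMSO at 3 h in 25 of the 72 gene lists, with a black diamond for the median of the fitted values, a grey line from the lowest to the highest member and open symbols for the list median of the differences between libraries of the same number. The columns at the right give the numbers of members called higher and lower and the number tested, and the dotted line is the median of all tested genes at -0.02. Amino acid and Hsf1 lists lie to the right in all 3 library pairs, and mitochondrial expression and phospholipid lists to the left. All lists were chosen with earlier results of these data known. Those of mitochondrial carriers, pyrimidine synthesis, mitochondrial gene expression factors and mitochondrial tRNA synthetases were added after values had been seen.

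Cytosolic ribosome genes showed small differences. None of 81 proteins of the large and 56 of the small cytosolic ribosomal subunit was called by edgeR. Of them 7 and 5 had an unadjusted p under 0.05, and DESeq2 called 2 lower in each. Their medians were -0.12 and -0.08 log2, and RPL3 stood at 4585, 4141 and 4512 CPM under 5-Ph-IAA and 4836, 3992 and 4733 CPM in DMSO. Of 39 genes of large-subunit assembly NOP16 fell (-0.55 log2, adjusted p = 0.0104), and 37 differences were negative. With NOP16 as its only call the list is near the 2.87% called lower over all tested genes. Their median was -0.02 log2, and the signs were not tested. None of 28 genes of the small-subunit processome (6 at an unadjusted p under 0.05), 20 translation initiation factors (3), 11 genes of RNA polymerase I (0) or 16 of RNA polymerase III (0) passed in edgeR or DESeq2. None of 14 genes of the vacuolar proton ATPase passed with either tool (1 at an unadjusted p under 0.05). Of 10 histones HTA2 was higher (0.46 log2, adjusted p = 0.0398, 0.0502 with the replicate block). Among 16 replication genes MCM2 was lower (-0.41 log2, adjusted p = 0.019, 0.0637 with the replicate block). Of 7 vacuolar proteases none was called by edgeR (2 had an unadjusted p under 0.05), and DESeq2 called 1 higher and 1 lower. In all, 16 of the 72 lists held no called gene, and 269 of the 482 called genes, 172 higher and 97 lower, stood in no list. Fitting only the 6 libraries ended the call of NOP16 (adjusted p = 0.144), HTA2 (0.29) and MCM2 (0.224). Fits without 5-Ph-IAA library 1 did not call HTA2 (adjusted p = 0.148). When 5-Ph-IAA library 2 was left out the call ended for MCM2 (adjusted p = 0.113). Leaving out DMSO library 1 ended the call of NOP16 (adjusted p = 0.0634).

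Mitochondrially encoded and small noncoding RNAs gave many of the largest fitted values, with libraries of 5-Ph-IAA both above and below all of DMSO. Of 34 genes called higher by a log2 of at least 2, 7 were mitochondrially encoded, 19 were small nuclear or nucleolar RNA or the RNA of the signal recognition particle, RNase P or RNase MRP, and 8 were annotated as nuclear protein-coding. Those 8 include RRT15 within the ribosomal DNA, which stood at 0.613, 497 and 18.5 CPM under 5-Ph-IAA and 0.669, 0.403 and 0.62 CPM in DMSO with overlap (8.25 log2, SE 1.60, adjusted p = 0.0039), and was not kept by the filter in the 6 libraries alone. The cytochrome oxidase gene COX2 stood at 60.2, 478 and 1.199 CPM under 5-Ph-IAA and 9.199, 4.67 and 3.47 CPM in DMSO (4.95 log2, SE 1.26, adjusted p = 0.023, 0.148 with the replicate block), so library 2 of 5-Ph-IAA was the highest and library 3 the lowest of all 6. The mitochondrial large ribosomal RNA stood at 3959, 23888 and 69.9 CPM under 5-Ph-IAA and 845, 312 and 202 CPM in DMSO in the same order. As shares of counts, mitochondrially encoded RNA made up 0.786%, 4.62% and 0.0165% under 5-Ph-IAA, with 95% Wilson intervals of 0.779 to 0.793, 4.59 to 4.64 and 0.0159 to 0.0171 that cover counting error only. In DMSO its shares were 0.162%, 0.102% and 0.0445%. The small RNA class held 0.377%, 3.90% and 0.0935% against 0.213%, 0.189% and 0.134%. Without 5-Ph-IAA library 2 none of the 20 mitochondrially encoded genes was called and the median fell from 3.13 to 0.91 log2, and of the 75 small RNAs none was higher and 1 was lower, with a median of -0.14 in place of 0.84. In the 6 libraries alone none of either class passed in edgeR. Neither class normally ends in a long poly(A) tail, while the libraries were of polyadenylated RNA, and the part of library make-up in these values was not tested. The nuclear protein-coding genes gave 278 higher and 170 lower, and 232 and 87 without that library. The fit of the 6 libraries alone lost COX2 (adjusted p = 0.158). When 5-Ph-IAA library 2 was left out the call ended for COX2 (adjusted p = 0.213).

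**Figure D4:**
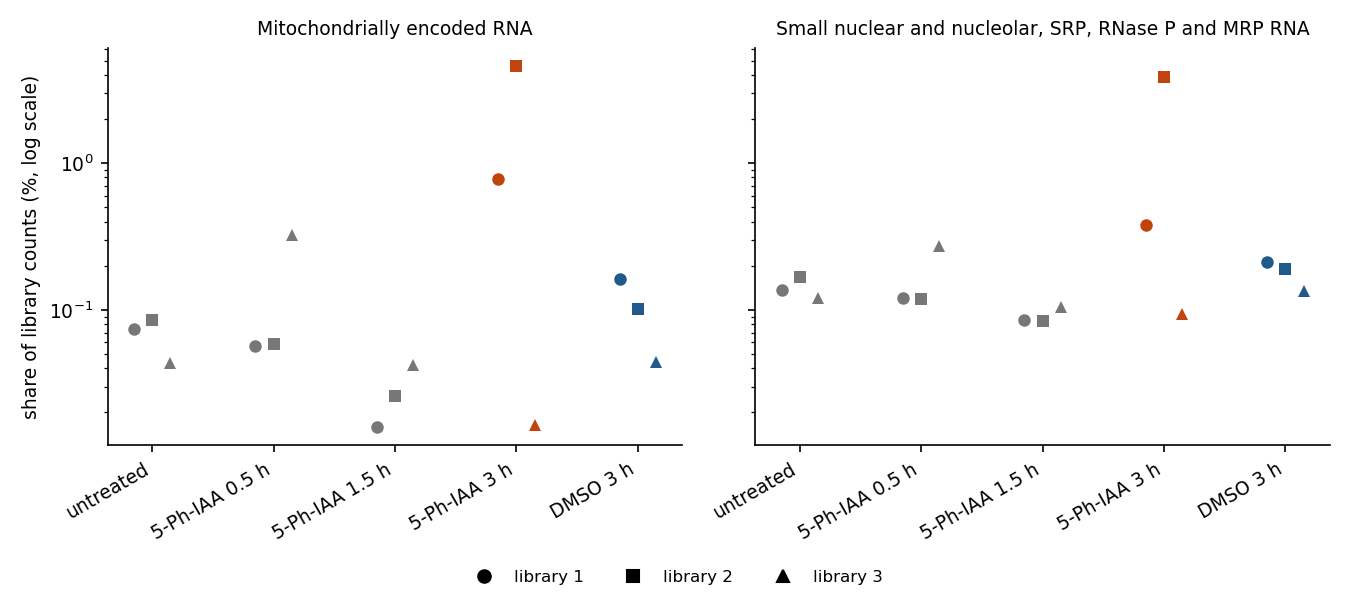
Share of each library's counts (percent, log scale) from mitochondrially encoded RNA, left, and from small nuclear and nucleolar, SRP, RNase P and MRP RNA, right, in all 15 libraries by group, with shapes for the library number. Library 2 of 5-Ph-IAA at 3 h has 4.62% and 3.90%, the highest of all 15, and library 3 of the same group has 0.0165% and 0.0935%.

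Promoter letters differed in frequency between genes called higher, genes called lower and all 5699 nuclear protein-coding genes tested, given here as shares without a test. TGACTC lay in 23.7% of the 278 windows of genes called higher, 4.12% of the 170 of genes called lower and 8.21% of all, and in 21.9%, 2.35% and 6.44% when only the 250 bases before the gene start were read. The heat shock trio lay in 4.32%, 0% and 0.790%, and the pair, which also occurs within trios, in 15.8%, 7.06% and 11.98%. The stress response element lay in 24.5%, 17.6% and 21.9%, and the letters GATAAG of nitrogen regulators in 18.3%, 17.6% and 14.7%. The pheromone response letters TGAAACA lay in 4.32% of windows of genes called higher and 10.6% of those called lower against 7.35% of all. Of the rises named above, SNZ1 holds TGACTC, while the windows of TMA10, ARO5 and BSC5 hold none of the motifs searched for.

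**Figure D5:**
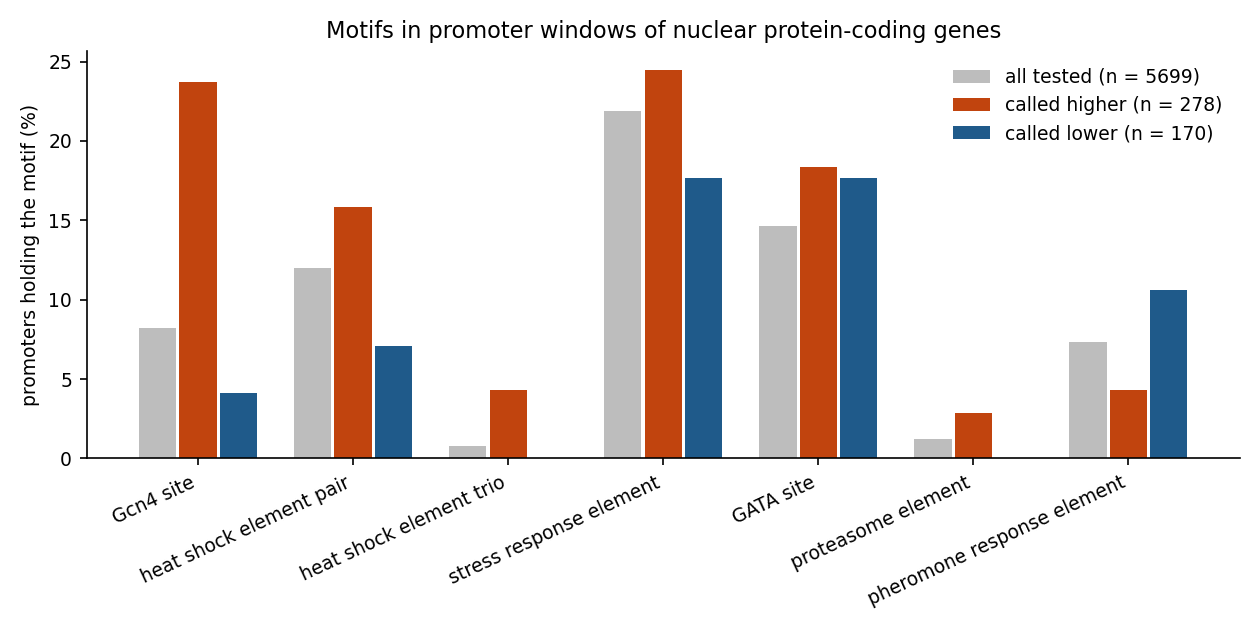
Share of promoter windows (percent, 250 bases before to 50 after the gene start) that hold each motif on either strand, for all 5699 tested nuclear protein-coding genes, the 278 called higher and the 170 called lower. The Gcn4 site stands at 23.7% in genes called higher against 8.21% of all and 4.12% in genes called lower.

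Position along the chromosome was also read. Within 30 kb of a chromosome end lay 5.25% of the 5699 tested nuclear protein-coding genes, 3.24% of those called higher and 8.82% of those called lower. Of the 17 nuclear protein-coding genes that fell by a log2 of at least 1, 7 (41.2%) lay there, namely ADH4, ZRT1, IMD2, CSS1, YEL073C, YHR214C-B and YOL155W-A (-1.30 log2, adjusted p = 0.0126, 0.0634 without DMSO library 1). These were named after their values were seen. In 52 of 5683 neighbouring pairs both genes were called, of which 24 pairs were both higher, 14 both lower and 14 opposite. As 7.94% of all tested genes were called, some such pairs arise without any link between neighbours. Their expected number was not worked out, so the count does not show that neighbours move together. SNO1 and SNZ1, YNR068C and BSC5, CUR1 and, 593 bp away, TDA6 (1.09 log2, adjusted p = 0.00839, 0.0569 without DMSO library 1) and PIC2 with its neighbours HOM3 and YER053C-A were among the pairs that rose together, and ADH4 and ZRT1 among those that fell. The gene YGL118C, 61 bp from ARO5 on the other strand, was called higher at 1.23, 1.94 and 1.91 CPM under 5-Ph-IAA and 0.251, 0.484 and 0.372 CPM in DMSO (2.10 log2, adjusted p = 0.0218, 0.0793 without DMSO library 1), and whether counting used strand is not given in the sources used here. The median gene length was 1062 bases in genes called higher, 1231 in those called lower and 1236 in all. Calls that ended in the 6 libraries alone were those of YOL155W-A (adjusted p = 0.0687) and YGL118C (0.0804).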

How the data were processed

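Polyadenylated RNA of yeast carrying ZPR1-AID was sequenced in 15 libraries of 5 groups, 3 per group. The authors deposited raw counts of reads per gene in 7127 rows, of which 6798 had a count. The submitters' processing notes name STAR 2.7.0, FastQC 0.11.5, DESeq2 1.34.0 and the genome build R64. How reads were counted, whether strand or multiply mapped reads were used and which annotation release served is not given in the sources used here. Reads of near-identical or overlapping genes can therefore be misplaced, and 11 called genes have a near-identical copy (at least 95% identity over at least 50% of the length, by blastn 2.17.0) and 15 overlap another gene.

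Counts were tested with edgeR 4.0.16 (R 4.3.3), using TMM scaling, filterByExpr, which kept 6069 genes, and the quasi-likelihood test over all 15 libraries with the contrast 5-Ph-IAA 3 h minus DMSO 3 h, two-sided, with Benjamini-Hochberg adjustment at 0.05. Levels are TMM-scaled CPM. The biological coefficient of variation was 17.0% over all 15 libraries, 22.3% in the 6 alone and 15.6% with replicate number as a block. On simulated data the test recovered 38.8%, 79.1% and 95.5% of genes changed 1.5, 2 and 4 times among 6069, and 6 of its 148 calls were false. The simulation was run for the 15-library fit only. As the 6 libraries compared vary more than all 15, these rates may not hold for this contrast. Alternatives were DESeq2 1.42.0, its size factors, total counts alone, other filters, robust estimation, the 6 libraries alone and with replicate number as a block, each library left out, and, chosen after seeing the data, nuclear protein-coding genes only.

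Deviations of 5-Ph-IAA and DMSO libraries of the same number correlated over genes (r = 0.196, 0.302 and 0.586). For this reason replicate number served as a block in an alternative fit, a choice made from the data and not from the labels. The main fit did not pair libraries. Libraries of unlike number had r between -0.422 and 0.170, and 5-Ph-IAA 1 with DMSO 2 (0.170) and 5-Ph-IAA 2 with DMSO 1 (0.123) came close to the 0.196 of number 1, so numbers 1 and 2 are hardly set apart. The pairing thus rests mainly on number 3, and these values cannot settle it for all 3 numbers. Adjusted p-values given with the replicate block depend on it. Replicate numbers were taken from the labels. Of the gene rows, 6047 matched the R64 annotation by locus tag and 122 by symbol. The members and the 72 gene lists, with 1276 genes, were chosen with earlier results of these data known, and 4 lists were added after values had been seen. Genes named are ZPR1, TEF1 and TEF2, the 12 largest rises and falls that passed in both the 15-library and the 6-library fit with at least 10 CPM and no overlap, and from lists up to 5 called members of lowest adjusted p and up to 3 others of the highest level. Genes named for their place on the chromosome, RRT15 and YGL118C were picked after their values were seen.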

Additional observations from a re-analysis of the deposited data

How the results depend on the processing

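Of the counts, 482 genes differing became 151 in the 6 libraries alone (118 higher and 33 lower) and 272 to 562 when a library was left out (180 to 363 higher and 90 to 199 lower), with the fewest calls without DMSO library 1 and the fewest lower calls without 5-Ph-IAA library 2. With replicate number as a block the 6 libraries gave 555 calls, 387 of them shared with the 482. DESeq2 called 667 (420 higher and 247 lower) and all 482 were among them. Its size factors gave 481 calls, robust estimation 452, testing without a filter 463, requiring 10 CPM 495, nuclear protein-coding genes only 479 and total counts alone 507, of which 424 were shared. On total counts alone the list medians of ubiquitin, aminoacyl-tRNA synthetase, trehalose, glycolysis, phosphate and mitochondrial carrier genes changed sign, to between -0.06 and -0.02 log2. Among 5913 values of 395 named genes under these settings none changed direction with a call, 325 lost their call, 98 of them in the 6 libraries alone, and 117 gained one. Under the block 12 were lost and 23 gained. For calls lost in the 6 libraries alone the spread there was larger (22.3% against 17.0%), and the cause was not tested further. Library 2 of 5-Ph-IAA, with 2530145 counts, limits the precision for genes of low level.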
